A study of Drosophila melanogaster with 4 samples.

Results

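The narrow regions described here are the stretches under 2 kb that were called enriched for H3K79me3 in late Drosophila melanogaster embryos, outside the X. The members were chosen by their width and chromosome alone from the authors' series-wide list of enriched regions, and they number 1299 of 6152 regions in that list, or of 5012 that are not on X. They were divided by their neighbours: 231 were near a broad region, meaning that 5 kb or less separated them from a region of 10 kb or more, and 1068 were isolated from any such region. Width and position in the series-wide list therefore chose and divided the members, so widths, scores and gaps read from that list are given as descriptions, with no test. What the rule did not use is the list of regions called in each ChIP replicate.

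H3K79me3 is the trimethylated form of lysine 79 of histone H3, a residue on the surface of the nucleosome core. The fly enzyme that places it is Grappa, related to Dot1 of yeast, and the mark is typical of genes that are being transcribed, mainly towards their start. A broad region of the mark usually spans much of a gene or several active genes. The sequences next to the centromeres are known as heterochromatin, the densely packed part of the genome that holds few active genes. Chromosome 4 carries marks of heterochromatin along its arm, yet it is known to hold many genes that are expressed.

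The 2 ChIP samples were made with a single antibody to H3K79me3 (Abcam ab2621 lot 1), and 2 input samples serve as their controls. All 4 samples come from wild-type Oregon-R embryos labelled as 14 to 16 hr old, with no treatment and no second genotype. No label states whether the replicates were separate embryo collections, so the spread between them may be technical. Region lists were analysed for the 2 ChIP samples and for the series, and no values of the inputs were used. Whole embryos mix all tissues, so fewer cells carrying the mark and less mark per cell cannot be told apart. The lists name no genes, and the gene table at hand follows Release 6 while the files follow FlyBase r5, so regions are named by their r5 position (1-based) and no genes or sequences are assigned to them.

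Each region carries a score that the authors gave without naming its scale, and the values of the narrow regions settle its base. When the most common score of the series-wide list (0.405, seen 22 times) was subtracted and the rest was taken as a power of 2, 1295 of the 1299 narrow regions (99.7%) gave a ratio of 2 whole numbers. The match was to within 1e-11 of the ratio, with whole numbers up to 1000 in the lower term. With the natural base or base 10 only 9 and 10 of them did. In the replicate lists the share was 100% of 1056 and 100% of 860 narrow regions. The score is thus on a log2 scale, a log2 ratio plus a constant. That constant was taken as the most common score, 0.405 in the series-wide list, 0.363 in replicate 1 and 0.452 in replicate 2. Whether this score stands for 2 equal numbers was not tested, and the ratios given below rest on it. What the 2 numbers count is not given in the sources used here, and in lowest terms they can be smaller than the numbers the authors used.

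Narrow regions were weakly marked. Their median score was 0.310, with the middle 50% between 0.243 and 0.357. Taken as a power of 2 with the constant left in, that median is 1.24. Compact regions of 2 to 4 kb had a median of 0.600 (1.52 on the same linear scale, the constant left in), those of 4 to 10 kb 1.16 (2.24) and the 701 broad regions 1.59 (3.02). Narrow regions were 1521 bp wide at the median and together covered 1.96 Mb, against 13.8 Mb in the broad regions. Only 20 of them scored 0.5 or more, and 36 scored under 0.1.

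Below 2 kb, the relation of score to width was weak and its sign depended on the shortest regions. Spearman's rho of score with width was -0.16 (Pearson's r -0.16) over the narrow regions and 0.65 (r 0.44) over the 3713 regions of 2 kb or more. Over the 911 narrow regions of at least 1301 bp it was 0.27 (r 0.21), and over the regions under 2 kb in the replicates' own lists it was 0.10 (r 0.10) in replicate 1 and 0.13 (r 0.09) in replicate 2. Regions are not independent replicates, and these are descriptions. The median score was 0.369 in the 156 regions under 1100 bp, was lowest at 0.252 between 1600 and 1700 bp and stood at 0.337 from 1900 bp up to 2 kb. The spread also closed around 2 kb. The central 90% of scores lay between 0.256 and 0.391 from 1900 bp up to 2 kb, and between 0.354 and 0.463 in the next 100 bp, but between 0.328 and 1.57 at widths of 2500 to 3000 bp.

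The limit of 2 kb thus falls at widths where scores spread little. Just inside it, regions of 1999 bp each scored 0.372 on 2L (4948234 to 4950232), 0.380 on 2R (12307500 to 12309498) and 0.340 on 3R (2170060 to 2172058). Just outside it, a region of 2001 bp scored 0.383 on 2L (13558860 to 13560860), one of 2001 bp scored 0.386 on 3L (7896320 to 7898320) and one of 2003 bp scored 0.378 on 2L (18849798 to 18851800).

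**Figure D1:**
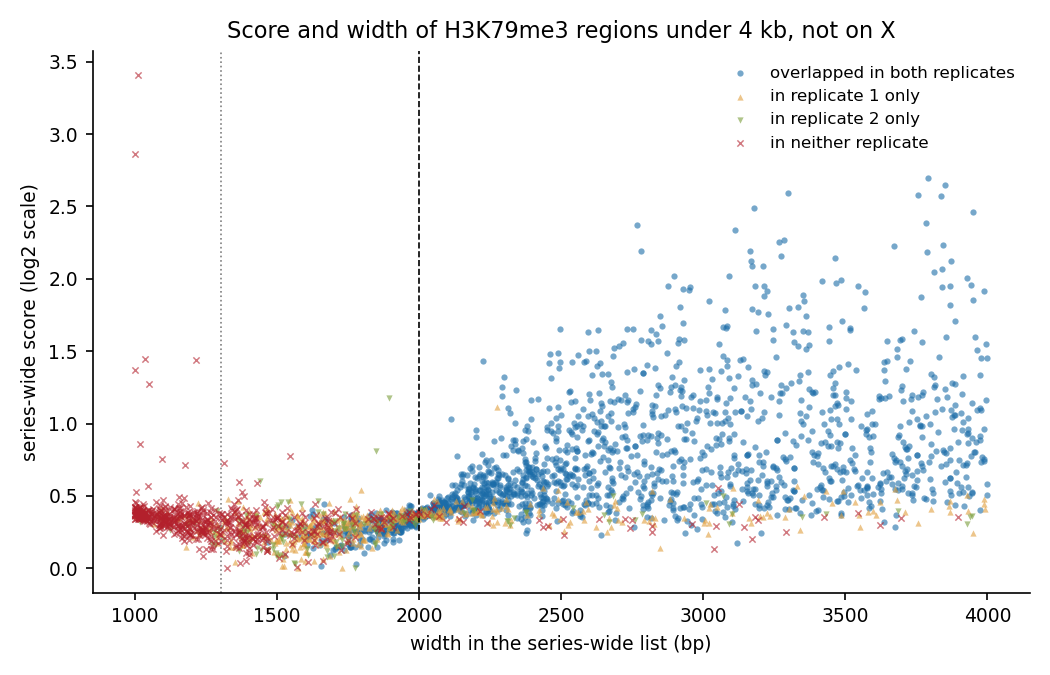
Series-wide score (log2 scale) against width in bp for regions under 4 kb that are not on X; each point is a region, and its colour shows whether at least 50% of it lay inside regions called in both, in 1 or in neither replicate. The dashed line is the 2 kb limit and the dotted line the narrowest region of either replicate list (1301 bp); scores pinch together near 2 kb, and the highest narrow score (3.41) belongs to a region found in neither replicate.

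The next question was which narrow regions each replicate also called. A region was called recovered by a replicate whose enriched regions covered 50% or more of its length. How the series-wide list was made is not given in the sources used here, so it may rest on the same reads as the replicate lists. Replicate 1 recovered 624 of the 1299 narrow regions (48.0%, 95% Wilson interval 45.3 to 50.8%), where 85.1% of all 5012 enriched regions not on X were recovered. Replicate 2 recovered 349 (26.9%, 24.5 to 29.3%), where it recovered 76.3% of all. The intervals cover counting error only. Both replicates recovered 242 narrow regions (18.6%, against 73.5% of all), and 568 were recovered by neither (43.7%, against 12.1% of all). In all, 557 narrow regions shared no base with either replicate list.

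Recovery averaged 37.5% ± 15.0 in narrow regions and 92.1% ± 5.48 in the 1652 compact regions of 2 to 4 kb (SD, n = 2). The difference was -47.9 points in replicate 1 and -61.3 in replicate 2. With 2 replicates an exact two-sided sign-flip permutation test cannot go below p = 0.5, and it gave p = 0.5 here. Replicate 1 recovered more narrow regions than replicate 2 on every large autosomal arm: 52.3% against 31.5% on 2L, 50.5% against 25.6% on 2R, 48.9% against 26.3% on 3L and 44.1% against 23.1% on 3R.

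The lists differ in their smallest width. Neither replicate list holds a region under 1301 bp, whereas the series-wide list goes down to 1001 bp. Of the narrow regions, 388 lay below 1301 bp. Replicate 1 recovered 44 of them (11.3%) and replicate 2 recovered 11 (2.84%), in each case by a wider replicate region, and none below 1301 bp was recovered in both. Among the 911 narrow regions of at least 1301 bp, recovery was 63.7% (60.5 to 66.7%) in replicate 1 and 37.1% (34.0 to 40.3%) in replicate 2, still below the compact regions by 32.3 and 51.1 points.

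Within the narrow class, recovery was higher at larger widths. In replicate 1 it was 7.05% under 1100 bp, 34.6% between 1400 and 1500 bp, 68.5% between 1600 and 1700 bp and 85.9% from 1900 bp up to 2 kb. The same widths had 1.28%, 15.0%, 28.5% and 72.4% in replicate 2. In the 100 bp just past the limit, the values were 92.4% in replicate 1 and 71.2% in replicate 2.

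When a narrow region was recovered, it was mostly as a narrow region again. The replicate region that held it was under 2 kb in 603 of 624 cases in replicate 1 (96.6%) and in 316 of 349 in replicate 2 (90.5%). Only 2 narrow regions, both near and both in replicate 2, lay inside a replicate region of 10 kb or more. Seen from the other side, replicate 1 has 1056 regions under 2 kb outside X, of which 604 (57.2%) fell in narrow series-wide regions and 275 (26.0%) in compact ones. Of the 860 in replicate 2, 317 (36.9%) fell in narrow and 344 (40.0%) in compact series-wide regions. A narrow call in a single library was thus often wider in the series-wide list.

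Scores in the replicates were higher than in the series-wide list, though each list has its own constant and a region not called by a replicate has no score there. Over the 242 narrow regions recovered in both, the medians were 0.394 in replicate 1 and 0.404 in replicate 2, against 0.295 in the series-wide list. The mean of the replicates was above the series-wide score in all 242 of these regions, by 0.102 at the median. It was above it in 96.6% of 1428 compact and 92.6% of 700 broad regions, by 0.0466 and 0.0257. The replicates also ordered the narrow regions less alike. Spearman's rho between their scores was 0.34 (Pearson's r 0.22) over the 242 narrow regions, 0.85 (r 0.93) over the compact and 0.95 (r 0.95) over the broad ones. The range of scores is also smallest in the narrow class, and the part this plays in the lower correlation was not tested.

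Recovery was lowest among the highest-scoring narrow regions. In the upper 25% by series-wide score, replicate 1 recovered 33.8% and replicate 2 recovered 17.5%, against 55.1% and 29.2% in the lowest 25%. The upper 25% also held 157 regions below 1301 bp, against 40 in the lowest 25%. The region on 3L from 9571272 to 9572282 (1011 bp) scored 3.41, the highest of all 6152 regions in the list, and shared no base with either replicate. It was followed by 2R from 9024432 to 9025432 (1001 bp, 2.86), 3L from 2455662 to 2456696 (1035 bp, 1.44), the unplaced sequence U from 9711602 to 9712814 (1213 bp, 1.44) and 3R from 4697470 to 4698470 (1001 bp, 1.37). All 5 were isolated, under 1301 bp and absent from both replicate lists. Of the 20 highest, 16 were recovered in neither replicate, 11 were under 1301 bp, 5 lay on U and 1 was near a broad region.

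These high scores came with small whole numbers. With the constant taken off, the score of the first region is a ratio of 8 to 1 in lowest terms, that of the second 11 to 2, and those of the next 3 are 37 to 18, 41 to 20 and 39 to 20. The lower term was 30 or less in 11 of the 20 highest-scoring narrow regions (55.0%), against 63 of the 1295 with such a ratio (4.86%). Its median was 29.5 in those 20 and 353 over all. What the small numbers contribute to the high scores was not tested.

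The link with score was sensitive to how width was treated. Over all 1299 regions, recovery above the median series-wide score minus recovery below it was -13.6 points in replicate 1 and -9.74 in replicate 2, a mean of -11.7 (exact two-sided sign-flip permutation p = 0.5). Among the narrow regions of at least 1301 bp, the differences were 2.06 and -0.0815 points, a mean of 0.987 (p = 1.0 in the same exact test). The sign of the mean thus turned when regions below the replicates' smallest width were left out. It did not turn when regions were split at the median score within each width class, where the differences were -4.08 and -11.3 points, a mean of -7.68 (p = 0.5 in the same exact test). In each of 5 width classes and in both replicates, the recovered narrow regions had a lower median series-wide score than the others, with differences between -0.0494 and -3.22e-05.

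Narrow regions recovered in both replicates had modest scores. The highest series-wide score among them was 0.444, on 2R from 356548 to 358212, with 0.653 in replicate 1 and 0.698 in replicate 2. It is isolated, with 44463 bp to the nearest enriched region. The next were 2R from 3716080 to 3718042 (0.440 in the series-wide list, 0.680 and 0.366 in the replicates) and 2L from 5769542 to 5771512 (0.428, with 0.532 and 0.556). These 3 were chosen after their values were seen.

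The central comparison set near against isolated narrow regions. Near regions had a median score of 0.301 and a median width of 1517 bp, and isolated ones 0.310 and 1521 bp. Among those recovered, the replicate region scored 0.428 at the median for near and 0.409 for isolated regions in replicate 1, and 0.415 and 0.424 in replicate 2. The difference in series-wide score was -0.00911, and in the 2 replicates' own scores it was 0.0185 and -0.00811 (SD 0.0188). The replicate differences use other scores and recovered regions only. Their SD thus does not measure the spread of the series-wide difference.

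For recovery, too, the difference did not have the same sign in the 2 replicates. Replicate 1 recovered 118 of 231 near regions (51.1%, 44.7 to 57.5%) and 506 of 1068 isolated ones (47.4%, 44.4 to 50.4%). Replicate 2 recovered 58 near regions (25.1%, 20.0 to 31.1%) and 291 isolated ones (27.2%, 24.7 to 30.0%). The difference, near minus isolated, was 3.70 points in replicate 1 and -2.14 in replicate 2, with a mean of 0.783 ± 4.13 (SD, n = 2; exact two-sided sign-flip permutation p = 1.0, where the smallest possible is 0.5). Both replicates recovered 42 near regions (18.2%) and 200 isolated ones (18.7%). Neither recovered 97 (42.0%) and 471 (44.1%).

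At equal width the 95% intervals of the near and isolated groups overlapped in both replicates. From 1800 bp up to 2 kb, replicate 1 recovered 88.5% of 52 near and 80.8% of 240 isolated regions, and replicate 2 recovered 63.5% and 65.0%. Between 1400 and 1600 bp the values were 57.1% of 42 and 47.9% of 194 in replicate 1, and 19.0% and 16.5% in replicate 2. The intervals of the near group are wide, from 77.0 to 94.6% for the first of these. They cover counting error over regions only, so their overlap does not show that the groups are equal.

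**Figure D2:**
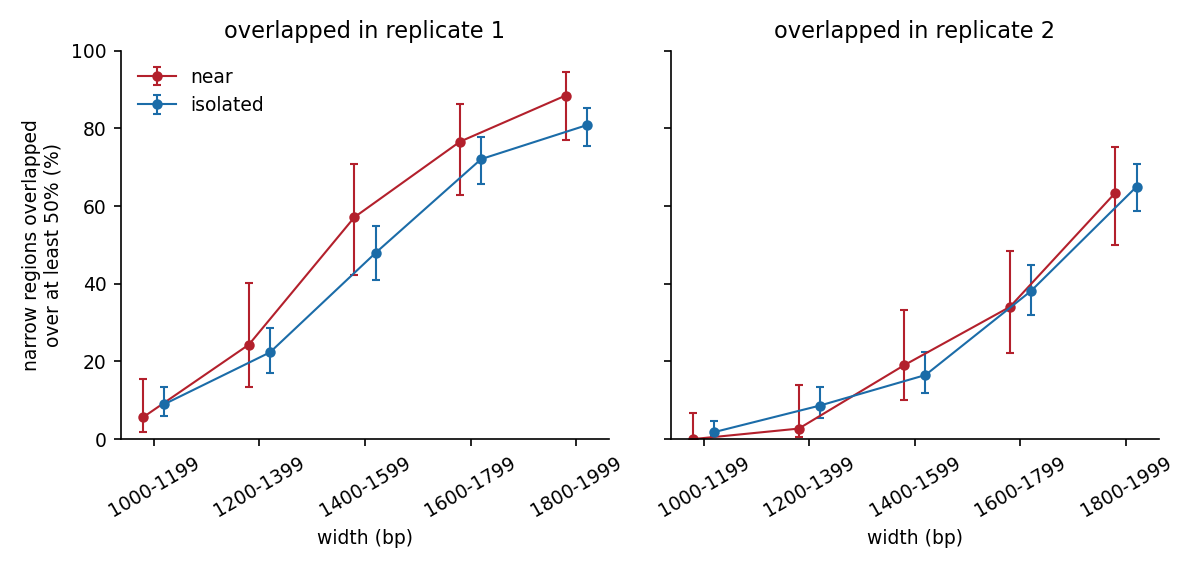
Percent of narrow regions recovered in replicate 1 (left) and replicate 2 (right), by width in the series-wide list, for regions near a region of 10 kb or more and for isolated ones; bars are 95% Wilson intervals, which cover counting error only. Recovery is higher at larger widths in both groups: in replicate 1 it is 5.66% of near and 9.01% of isolated regions in the lowest width class, and 88.5% of near and 80.8% of isolated regions in the highest.

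The isolated regions are themselves mixed. Of the 1068, 848 had a region under 10 kb within 5 kb and 220 had no enriched region of any width that close. Those 220 were 1583 bp wide at the median and scored 0.309. They were recovered in 50.0% (43.5 to 56.6%) in replicate 1 and 31.8% (26.0 to 38.2%) in replicate 2. The 848 were recovered in 46.7% and 26.1%. Set against those 220, the near regions differed by 1.08 points in replicate 1 and by -6.71 in replicate 2.

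Most narrow regions sat close to another enriched region. The gap to the nearest one was 1013 bp at the median, 1079 of 1299 (83.1%) had one within 5 kb, and 503 (38.7%) had one within 5 kb on each side. A gap under 250 bp was found for 260 (20.0%), and these were recovered in 43.5% by replicate 1 and 28.5% by replicate 2, close to the values of all narrow regions. The shares with close neighbours are not given here for regions of other widths, so they are not shown to be particular to narrow ones.

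The near regions lay at a median gap of 1727 bp from their broad region. In 144 of 231 the broad region was the closest region of any kind, in 97 the gap was under 1 kb, and 6 lay between broad regions on both sides. The smallest gap was 7 bp, on 3L from 18765034 to 18766546 (1513 bp, score 0.459), beside a region of 20025 bp with a score of 1.91. Replicate 2 called it as a region of its own (score 0.667), and replicate 1 did not. The next gaps were 17 bp on 3R from 21267978 to 21269418 (score 0.238) and 25 bp on 3L from 2777624 to 2779152 (score 0.281). Both were called by replicate 1 alone, with scores of 0.457 and 0.397. The replicate regions over these 3 were 1449, 1394 and 1623 bp wide, so each was narrow in the replicate that called it.

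Among near regions, the highest score was 0.856, on 3R from 22383926 to 22384942 (1017 bp), 119 bp from a region of 22463 bp that scored 2.05. The others of the 5 highest were the region with the 7 bp gap, 2L from 944252 to 945278 (0.443), 2R from 19575752 to 19576902 (0.442) and 2R from 2819046 to 2820134 (0.434). Of the 5, only the one with the 7 bp gap was recovered, and in replicate 2 alone. No near region scored above its broad region (0 of 231). The lowest score of any broad region was 0.492, above every near region but the highest. This count was thus almost fixed by the classes and says little about neighbouring pairs. The scores of near regions and their broad regions were hardly related (Spearman's rho -0.11, Pearson's r -0.10 over 231 pairs, in which regions beside 1 broad region share it). Just inside the 5 kb limit, the gaps of 4987, 4975 and 4929 bp belonged to regions scoring 0.300, 0.348 and 0.133. Just outside it, gaps of 5001, 5003 and 5077 bp belonged to regions scoring 0.568, 0.377 and 0.316.

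Of the 701 broad regions outside X, 203 (29.0%) had a narrow region within 5 kb, 33 had 2 or more, and none had more than 3. Broad regions with such a neighbour were 15835 bp wide at the median, and those without were 15988 bp wide.

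Narrow regions were dense beside broad ones, but so were regions of other widths. Of the narrow regions, 17.8% (15.8 to 20.0%) were near, and among all regions under 10 kb outside X the share was 17.7%. It was 16.0% (14.3 to 17.8%) for compact regions and 19.8% (17.8 to 22.0%) for those of 4 to 10 kb. On the 4 large autosomal arms, sequence outside all enriched regions and within 5 kb of a broad region came to 4.44 Mb, 6.54% of the unmarked sequence. Narrow regions numbered 52.0 per Mb there and 16.4 per Mb in the other unmarked sequence, a ratio of 3.17 (95% Poisson interval on the near count 2.77 to 3.60). For compact regions the ratio was 2.80 (2.48 to 3.16) and for those of 4 to 10 kb 3.53 (3.12 to 3.98).

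The density was lower at larger distances. It was 84.7 narrow regions per Mb of unmarked sequence within 1 kb of a broad region, 39.8 at 1 to 2 kb and 40.9 at 2 to 5 kb. Farther away it was 37.2 at 5 to 10 kb, 27.1 at 10 to 20 kb, 17.9 at 20 to 50 kb and 11.3 beyond. The median score stayed between 0.297 and 0.317 over these distances. Recovery in replicate 1 lay between 41.5 and 54.1% and in replicate 2 between 19.4 and 32.0%, with no steady trend. The densities just inside and just beyond 5 kb thus had overlapping intervals (33.2 to 49.9 and 31.3 to 43.8 per Mb).

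**Figure D3:**
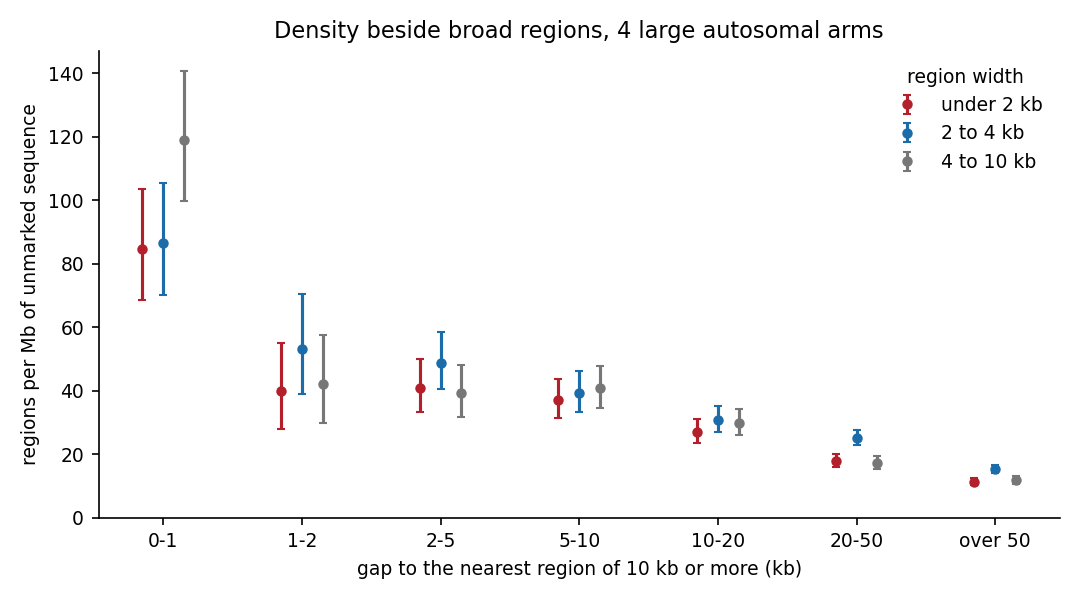
Regions per Mb of unmarked sequence on the 4 large autosomal arms against the gap in kb to the nearest region of 10 kb or more, for regions under 2 kb, of 2 to 4 kb and of 4 to 10 kb; bars are 95% exact Poisson intervals on the counts. All 3 width classes are densest within 1 kb (84.7 narrow regions per Mb) and sparsest beyond 50 kb (11.3 narrow regions per Mb).

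Position along the arms was read by cutting each large autosomal arm into 10 equal parts from centromere to tip. The part next to the centromere held 5 near and 72 isolated narrow regions, 7.97 per Mb in all, and the part after it 26 and 141, or 17.3 per Mb. The other 8 parts had between 11.3 and 15.0 per Mb. Regions of 2 kb or more had 24.0 per Mb in the part next to the centromere and between 34.8 and 45.2 elsewhere. Narrow regions made up 24.9% of all regions there and between 22.0 and 29.2% in the other parts.

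Near regions, like the broad regions that define them, were fewest beside the centromere. In the part next to it 6.49% of narrow regions were near, with 29 broad regions present, against 15.6 to 27.7% elsewhere with 68 to 87 broad regions in each part. In the last 1 Mb of each arm beside the centromere lay 21 of the 1273 narrow regions of these arms (1.65%, 1.08 to 2.51%), where 4.14% of their length lies. Of those 21, 1 was near (0.433% of near regions) and 20 were isolated (1.92%). Regions of 2 kb or more had 1.83% there (1.44 to 2.32%), and the intervals of both classes overlapped. Of the 21, 12 lay on 3R, 6 on 2R, 2 on 2L and 1 on 3L. How well reads map beside the centromeres was not tested.

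**Figure D4:**
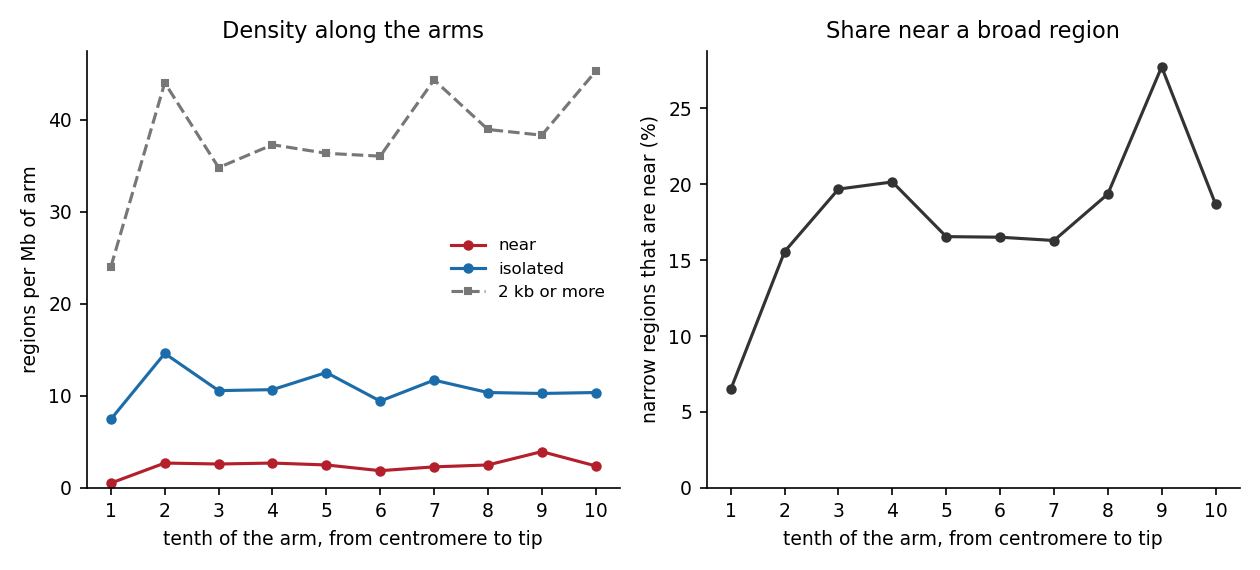
Left, regions per Mb of arm in 10 equal parts of the 4 large autosomal arms from centromere to tip, for near and isolated narrow regions and for regions of 2 kb or more; right, percent of narrow regions that are near a region of 10 kb or more. The part next to the centromere is the lowest in every line, with 0.518 near and 7.45 isolated narrow regions per Mb.

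The 4 large arms were alike in their density of narrow regions, with 12.1 per Mb on 2L, 13.3 on 2R, 13.2 on 3L and 14.0 on 3R. They were less alike in recovery: neither replicate recovered 38.0% on 2L (32.5 to 43.8%) and 49.2% on 3R (44.3 to 54.2%). The median width was 1585 bp on 2L and 1487 bp on 3R, and the part of width in this difference was not tested. The near share was 23.1% on 2R (18.6 to 28.4%), 18.2% on 3R, 16.8% on 2L and 14.9% on 3L (11.4 to 19.2%). Of the stretches of 100 kb with narrow regions, 293 held 1, and 1 each held 7, 8 and 9. The stretch of 100 kb with the most was on 2R from 9500001 to 9600000, with 9 narrow regions, 3 wider ones and no near member. Its scores ran from 0.190 to 0.426, and 3 and 1 of the 9 were recovered in replicates 1 and 2. Next came 8 on 2R between 3300001 and 3400000, with 7 wider regions (7 and 2 of the 8 recovered). Then came 7 on 3R between 6600001 and 6700000, with 5 wider regions (4 and 1 of the 7 recovered). Whether narrow regions gather more than other regions was not tested. None of the members in these 3 stretches was near a broad region.

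Narrow regions outside the large arms were few, and all of them were isolated. Chromosome 4 had 12, or 8.88 per Mb (95% Poisson interval 4.59 to 15.5), which is 0.674 of the 13.2 per Mb on the large autosomal arms. They were 26.1% of its 46 regions, against 25.8% on the arms, and the interval of their density takes in that of the arms. The single broad region on chromosome 4 had none within 5 kb. The 6 Het sequences, assembled from heterochromatin, had 6 narrow regions in 9.28 Mb, or 0.646 per Mb, and the unplaced sequence U had 8 in 10.0 Mb, or 0.796 per Mb. Enriched regions of any width were few there as well, 17 in the Het sequences and 13 on U. Narrow regions made up 35.3% and 61.5% of these, so the low density was not particular to them.

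On chromosome 4 and in the Het sequences the replicates changed places. Replicate 1 recovered 1 of the 12 narrow regions of chromosome 4 (8.33%, 1.49 to 35.4%) and replicate 2 recovered 8 (66.7%, 39.1 to 86.2%). In the Het sequences the counts were 2 and 5 of 6. On the large autosomal arms, replicate 1 recovered 618 (48.5%) and replicate 2 recovered 335 (26.3%) of 1273. Beside the centromeres of these arms, however, the counts were 10 and 11 of 21 in 1 Mb, and 24 and 24 of 56 in 2 Mb. On U replicate 1 was ahead, with 3 against 1 of 8. The difference between chromosome 4 and the arms was not tested, since a change of place between 2 libraries has no replicate.

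Most wider regions of chromosome 4 were seen by both libraries: all 34 regions of 2 kb or more were recovered in replicate 2, and 31 of them in both. The other 3 were recovered in replicate 2 alone, so replicate 2 was ahead here too (100% against 91.2%). On the large autosomal arms, replicate 1 recovered 98.1% of such regions and replicate 2 recovered 93.5%. In the Het sequences all 11 such regions were recovered in both replicates. The order of the replicates on chromosome 4 was thus not particular to narrow regions.

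The highest-scoring narrow regions of chromosome 4 lay from 703022 to 704026 (0.527, in neither replicate), from 691684 to 693182 (0.424) and from 751420 to 752780 (0.364, in neither). Replicate 2 called the second of these with a score of 0.601. The 1 region recovered in both, from 380532 to 382512 (0.300), scored 0.0978 in replicate 1 and 0.565 in replicate 2. It was named after its values were seen.

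In the Het sequences the highest was on YHet from 300514 to 302406 (1893 bp), with a series-wide score of 1.18. It was called in replicate 2 with a score of 2.00 and was absent from replicate 1. The next were on XHet, from 76292 to 78190 (0.372) and from 84364 to 86326 (0.369). The first of these was called in replicate 1 (0.536) but not in replicate 2, and the second in both (0.533 and 0.390).

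**Figure D5:**
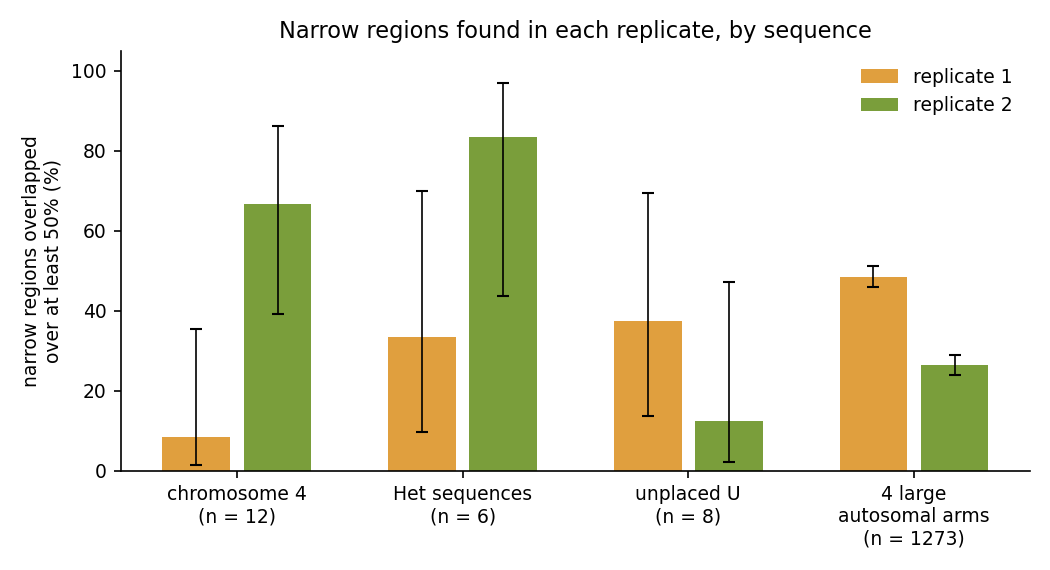
Percent of narrow regions recovered in each replicate, for chromosome 4, the 6 Het sequences, the unplaced sequence U and the 4 large autosomal arms; bars are shares and whiskers 95% Wilson intervals (counting error only). Replicate 2 is higher on chromosome 4 (66.7% against 8.33%) and lower on the arms (26.3% against 48.5%).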

How the data were processed

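The deposited files list regions called enriched or depleted, 1 list for each of 2 ChIP replicates and 1 for the series. Each region has a score given by the authors, whose scale the deposited headers do not state. The submitters' processing notes name Bowtie 0.12.7, the file headers give FlyBase r5 as the build, and per the labels each input served the list of 1 replicate. The sources used here do not give the caller, its threshold, read filters or any pooling. The lists hold no read counts, so depth is unknown.

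Enriched series-wide regions under 2000 bp and not on X were taken. Gaps count the bases between regions, near means 5000 bp or less from a region of 10000 bp or more, and recovered means overlapped over at least 50% of the length. Unmarked sequence is outside all enriched regions, on sequences with a region. Shares carry 95% Wilson intervals and counts exact Poisson intervals. Regions were not treated as replicates, so no test was run over them. The differences over 2 replicates were tested by exact sign-flip permutation.

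Members and lists were chosen with earlier results of these data known. Named regions are the 5 highest-scoring near, isolated and unrecovered ones, those at the 2 kb limit, the highest on chromosome 4 and Het, the 3 smallest gaps and the 3 densest stretches. The gap and overlap code was tested on 1299 simulated regions and returned 100% of the gaps and overlaps. Python 3.11.15, numpy 2.4.6, pandas 2.3.3, scipy 1.17.1 and matplotlib 3.10.9 were used. Alternatives varied the limits of width, gap and overlap, the score, the sequences used and the replicates.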

Additional observations from a re-analysis of the deposited data

Results flagged for a closer look

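The change in recovery from one replicate to the other had opposite signs on chromosome 4 and on the large autosomal arms. Replicate 2 minus replicate 1 was 58.3 points over the 12 narrow regions of chromosome 4 and -22.2 points over the 1273 of the arms. The difference was not tested, and each side rests on 1 pair of libraries.

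The series-wide list also holds regions called depleted, a signal outside the enriched regions, and 5 of them are not on X. They were 1467 to 1845 bp wide, within the width range of the narrow regions, with scores from -0.140 to -0.000436. For 4 of the 5, an enriched region of a replicate covered 50% or more of the length. None of the 5 was within 5 kb of a narrow region.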

How the results depend on the processing

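The near minus isolated recovery difference had no settled sign. Its mean of 0.783 points became -1.94 with an overlap of 80%, -1.20 with near within 10 kb, -0.964 and -2.05 with broad regions from 8 or 15 kb, and -2.81 against regions with nothing within 5 kb, an alternative added after the data were seen. It ranged from -2.14 without replicate 1 to 3.70 without replicate 2. Under the other 9 alternatives it stayed positive. The near share of 17.8% moved to 10.2 and 28.7% with limits of 2 and 10 kb, and to 23.2 and 10.2% with broad regions from 8 and 15 kb. It moved to 11.7 and 13.5% with the broad regions of replicate 1 and 2. The density ratio over all sequences but X, 4.08, was 4.80 with near within 2 kb. On the large arms alone the ratio was 3.17, and 3.07 after 1 Mb beside each centromere was left out. In the 2 Mb next to the centromere lay 4.40% of narrow regions, against 1.65% in 1 Mb. The difference in recovery above against below the median score, -11.7 points, reversed to 0.987 among regions of at least 1301 bp, was -7.68 when split within width classes and -8.60 among regions under 1.5 kb, and ranged from -13.6 to -9.74 without each replicate. The difference in series-wide score, near minus isolated, was -0.00911 and lay between -0.0155 and 0.00280 under its 6 alternatives. It was above 0 with near within 10 kb (0.00280) and with broad regions from 8 kb (0.00161). The recovery difference of narrow minus compact regions, -54.6 points, ranged from -61.3 to -47.9 without each replicate. It was -42.6 with an overlap of 80%, -41.7 with narrow regions of at least 1301 bp and -55.6 with an overlap of 1 base. The cause of these changes was not tested. No paired analysis was possible because the samples that share replicate numbers, ChIP and input, were not compared. The differences between classes of regions were taken within each ChIP replicate. Genes under the regions were not assigned, for lack of an annotation of the files' build. With 2 replicates, no difference could pass a threshold of 0.05.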
